A study of Mus musculus with 2 samples.

Results

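The cells described here are pituitary-type endocrine cells found in single-cell RNA libraries of mouse optic nerve. They were chosen by their own reads: a cell showing 500 genes or more, of whose UMIs no more than 10% were mitochondrial, was taken when it held at least 3 Cga and 3 Chga UMIs (unique molecular identifiers, each standing for 1 captured RNA molecule), at most 1 UMI of Cd3d, Cd3e and Cd3g together, and at most 3 of C1qa, C1qb and C1qc together. The rule found 58 cells among 19784 kept cells, a share of 0.293%. The anti-PD-1 library held 12 of them among 12605 cells and the anti-TIGIT library 46 among 7179.

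The study sequenced optic nerve cells of Nf1-OPG mice, a model of optic pathway glioma, after antibodies against the T cell checkpoint receptors PD-1 (gene Pdcd1) or TIGIT. All mice of both groups carried 1 Nf1 copy disrupted in every cell by a neomycin cassette in exon 31 and a floxed copy that a GFAP promoter-driven Cre removes in neuroglial progenitors. The nerves of 10 mice of 12 weeks were pooled into each library, live cells were sorted by 7-AAD, and a 10x 5′ kit was used. Each treatment is thus 1 library, with no untreated library here, and the 2 treatments cannot be told apart from 2 preparations. The labels name optic nerve as the only tissue and do not name pituitary, although the protocol text also speaks of suspensions of meningeal dura. No result below has a replicate or a test, and every interval (95%, exact) and every floor covers counting error only.

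Endocrine cells of the pituitary secrete hormones from dense-core granules. Thyrotrophs and gonadotrophs share the glycoprotein alpha subunit encoded by Cga and pair it with a hormone-specific beta subunit, Tshb for thyrotropin and Lhb or Fshb for the gonadotropins. The gland's anterior lobe thyrotrophs depend on the transcription factor Pou1f1 and answer thyrotropin-releasing hormone through Trhr. A thin sheet of the same gland, the pars tuberalis, wraps the stalk near the optic chiasm, and its Tshb cells are known to lack both genes, to carry the melatonin receptor Mtnr1a, and to time seasonal responses. Granins such as chromogranin A (Chga), chromogranin B (Chgb) and secretogranin 2 (Scg2) fill the granules, and their promoters are known to hold cAMP response elements.

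The promoters of the 2 hormone subunit genes and of the 3 main granin genes are shown because the cells are recognised by these transcripts. Each line gives the 100 bases before the RefSeq start of the gene in build GRCm38.p6, 5′ to 3′ on the gene's strand, and the capitals mark a TATA box (TATAAA) or a cAMP response element (TGACGT, or TGACGTCA in full) found on either strand.
Cga (ENSMUSG00000028298), chr4:34893679-34893778, plus strand: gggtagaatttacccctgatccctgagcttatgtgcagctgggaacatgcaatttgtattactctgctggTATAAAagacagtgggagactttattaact
Tshb (ENSMUSG00000027857), chr3:102782715-102782814, minus strand: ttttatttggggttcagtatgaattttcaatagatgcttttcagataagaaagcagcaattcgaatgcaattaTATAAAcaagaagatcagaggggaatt
Chga (ENSMUSG00000021194), chr12:102554841-102554940, plus strand: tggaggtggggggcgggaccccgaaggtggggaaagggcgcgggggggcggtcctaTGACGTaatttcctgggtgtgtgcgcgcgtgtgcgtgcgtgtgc
Chgb (ENSMUSG00000027350), chr2:132781542-132781641, plus strand: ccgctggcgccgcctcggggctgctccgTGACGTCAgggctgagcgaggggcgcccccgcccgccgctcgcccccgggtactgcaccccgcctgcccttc
Scg2 (ENSMUSG00000050711), chr1:79440027-79440126, minus strand: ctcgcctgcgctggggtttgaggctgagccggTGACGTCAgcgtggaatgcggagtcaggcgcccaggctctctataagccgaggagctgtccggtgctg
The 2 subunit promoters held TATAAA, starting 30 bases before the start of Cga and 27 before that of Tshb, and neither held TGACGT. The 3 granin promoters held TGACGT, starting 44 bases before the start in Chga, 72 in Chgb and 68 in Scg2, and none held TATAAA. In Chgb and Scg2 the element was the full palindrome TGACGTCA, which reads as TGACGT on both strands, so that the shorter motif lies within it. Of 32851 promoter windows of this length, 5.56% held TATAAA, 4.09% TGACGT and 1.15% TGACGTCA. The matches describe letters in these windows only.

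Every chosen cell had both genes of the rule, so their levels are a description of the choice. Cga ranged from 33 to 2414 UMIs per cell among anti-PD-1 cells (median 149.5) and from 3 to 481 among anti-TIGIT cells (median 79). Chga ranged from 149 to 1049 (median 357) and from 3 to 921 (median 359.5). The ranges of the 2 libraries overlapped for both genes. A single anti-PD-1 cell held 2414 of that library's 4001 Cga UMIs, 17.0% of all its own UMIs, with no Tshb and no Cck. Cga summed over the anti-PD-1 cells stood at 37174 CPM (UMIs per 1000000 UMIs of these cells), or 16981 CPM without that cell, and at 14064 CPM over the anti-TIGIT cells. Just inside the rule lay 2 cells with 3 to 5 Cga UMIs and 2 with 3 to 5 Chga UMIs.

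**Figure D1:**
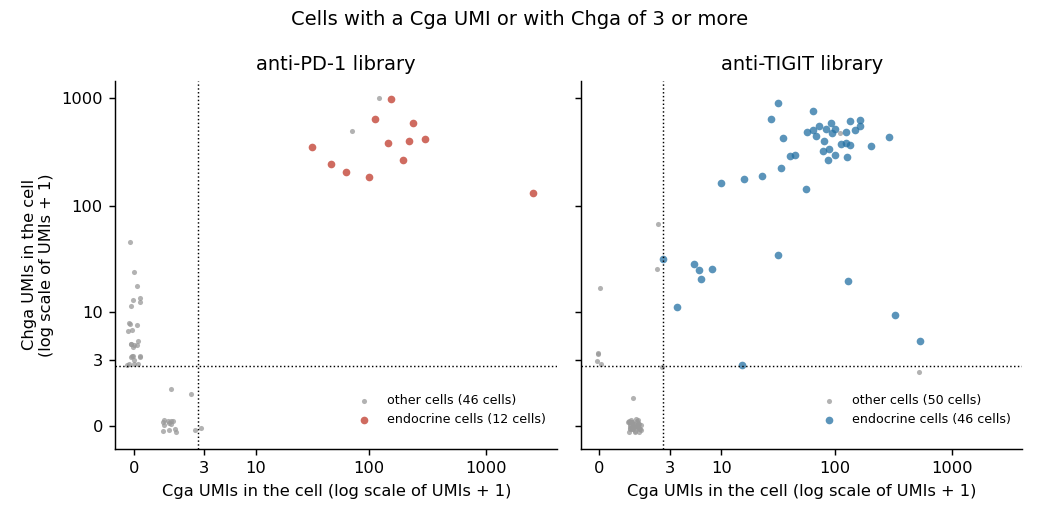
Cga UMIs (x axis) against Chga UMIs (y axis) of single cells that held a Cga UMI or at least 3 Chga UMIs, both on a log scale of UMIs + 1 with a small random shift, by library. Dotted lines lie just under the rule's limit of 3 UMIs, coloured points are the chosen cells (12 and 46) and grey points all others. Of the 58 chosen cells 47 lie at 149 Chga UMIs or more, and the 11 others, all in the anti-TIGIT library, at 34 or fewer.

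Just outside the rule lay a small number of cells. The Cd3 limit left out 3 cells that otherwise met it, with 65, 120 and 110 Cga UMIs beside 9, 23 and 16 Cd3 UMIs. Of 2 cells with Cga but fewer than 3 Chga UMIs, 1 anti-TIGIT cell had 560 Cga, 2 Chga, 129 Lhb and 19 Fshb UMIs, and the other was a cell with 3 Cga and 33 Mog UMIs. A further 35 cells (28 and 7) had 3 or more Chga but fewer than 3 Cga UMIs. Of the anti-PD-1 cells among them, all 28 were without Tshb, and their Chga ran from 3 to 48 UMIs (median 5). Of the 7 anti-TIGIT cells 3 had Tshb, among them both cells with 2 Cga UMIs (26 and 64 Chga UMIs). Of the other kept cells of the anti-PD-1 and anti-TIGIT libraries, 0.143% and 0.631% had a Cga UMI, 0.492% and 0.981% a Tshb UMI, and 1.74% and 2.30% a Chga UMI.

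Genes the rule did not use were read next. Tshb, the thyrotropin beta subunit, is a marker given with the label, so its presence is a description and not an independent check. It was present in 45 of 58 cells, in 9 of 12 anti-PD-1 and 36 of 46 anti-TIGIT cells. The anti-PD-1 cells had 0 to 152 Tshb UMIs (median 19) and the anti-TIGIT cells 0 to 169 (median 16), and the ranges overlapped. Summed levels were 4822 CPM (interval 4416 to 5255) and 3839 CPM (3623 to 4064). By comparison, 1.63% and 1.41% of oligodendrocytes of the same libraries, with a median of 7288 and 6435 UMIs per cell, had a Tshb UMI, against a median of 9438.5 and 6713.5 UMIs in the endocrine cells. Tshb was found in 75% of the anti-PD-1 cells and 71.7% of the anti-TIGIT cells after each cell was thinned to 2000 UMIs, which every cell reached.

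The other hormones of the anterior lobe were nearly missing. Growth hormone (Gh) and prolactin (Prl) had 0 UMIs in all 58 cells, which allows at most 7.21 CPM over both libraries by a floor of 3 UMIs. Pomc, the precursor of corticotropin, had 3 UMIs in 1 anti-PD-1 cell and 7 in 5 anti-TIGIT cells. Lhb and Fshb, the gonadotropin beta subunits, came almost wholly from 2 anti-TIGIT cells. These held 118 and 167 Lhb UMIs, 42 and 47 Fshb UMIs and 1 or 2 UMIs of Gnrhr, the receptor for gonadotropin-releasing hormone, with no Tshb and no Cck. Their Cga was high (329 and 481 UMIs) and their Chga low (5 and 8 UMIs). The cell left out for 2 Chga UMIs was like them in its Lhb and Fshb.

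**Figure D2:**
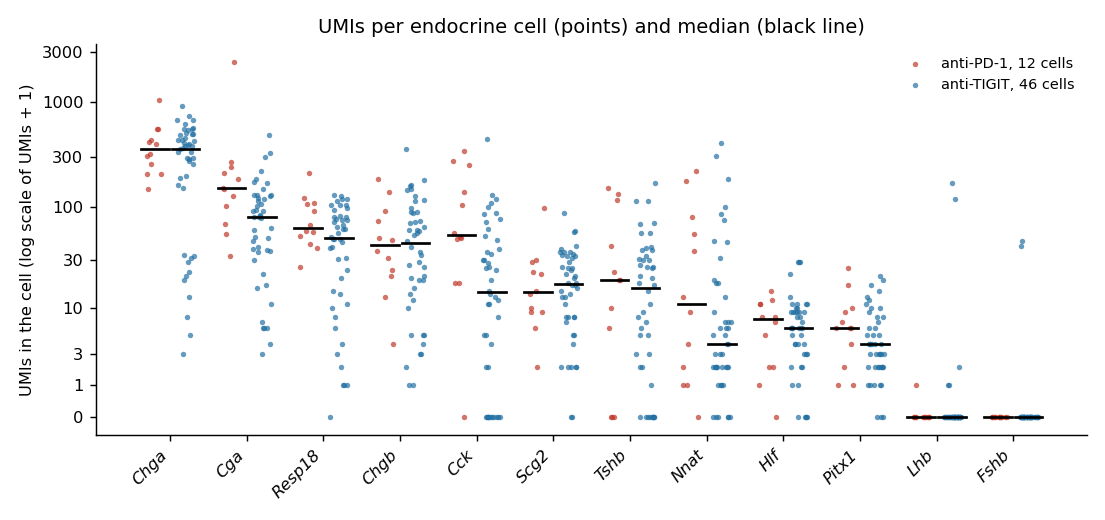
UMIs per endocrine cell (y axis, log scale of UMIs + 1) for 12 genes (x axis), 12 anti-PD-1 cells in red and 46 anti-TIGIT cells in blue, with the median as a black line. Lhb and Fshb are at 0 in most cells of both libraries and above 100 and 40 UMIs in 2 anti-TIGIT cells, while Chga, Cga, Chgb and Resp18 are present in nearly every cell.

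Transcription factors of the pituitary lineage were present, with 11 of 16 listed genes detected. Pitx1, which acts in all pituitary hormone lineages, was found in 55 of 58 cells (12 of 12 and 43 of 46), with 1 to 25 UMIs (median 6) in the anti-PD-1 cells and 0 to 21 (median 4) in the anti-TIGIT cells. Its level, pooled over both libraries, was 827 CPM against at most 1.71 CPM in any of 4 reference classes pooled likewise (T cells, C1q myeloid cells, oligodendrocytes and fibroblasts, gated by UMIs of their own markers). The LIM factor Lhx3 was in 7 of 12 and 14 of 46 cells. Isl1, also a LIM factor, was found in 8 of 12 and 29 of 46. Gata2, a factor of thyrotrophs and gonadotrophs, was in 9 of 12 and 29 of 46 cells with levels of 334 and 370 CPM. In oligodendrocytes the share with a UMI was at most 0.156% for Pitx1, Lhx3, Gata2 and Isl1.

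Of 7 listed factors that act in particular hormone lineages, 4 were at 0. Pou1f1, needed by anterior lobe thyrotrophs, somatotrophs and lactotrophs, had no UMI in 58 cells, nor did Tbx19 of corticotrophs, Pax7 of melanotrophs or Neurod4. Hesx1, Lhx4, Otx2 and Sox3, which act in the early gland, were also at 0. A count of 0 in 58 cells allows a share of cells with a UMI of up to 5.17%, by the floor of 3 counts. Among the detected factors of the 7, Neurod1 had 11 UMIs in 4 of 12 anti-PD-1 cells and 21 in 11 of 46 anti-TIGIT cells. Nr5a1 had 2 UMIs in 2 anti-TIGIT cells and none in the anti-PD-1 cells. Foxl2, a factor of Cga-expressing cells, had 32 UMIs in 21 of 46 anti-TIGIT cells and 0 in 12 anti-PD-1 cells. Of the 21 cells, 16 also had Tshb. The shares with a UMI were 45.7% (30.9% to 61.0%) and 0% (0 of 12 cells, which allows up to 25% by the same floor), which did not overlap. The anti-PD-1 cells were the deeper ones. After thinning to 2000 UMIs, the shares were 15.2% (6.34% to 28.9%) and 0%, and these overlapped.

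**Figure D3:**
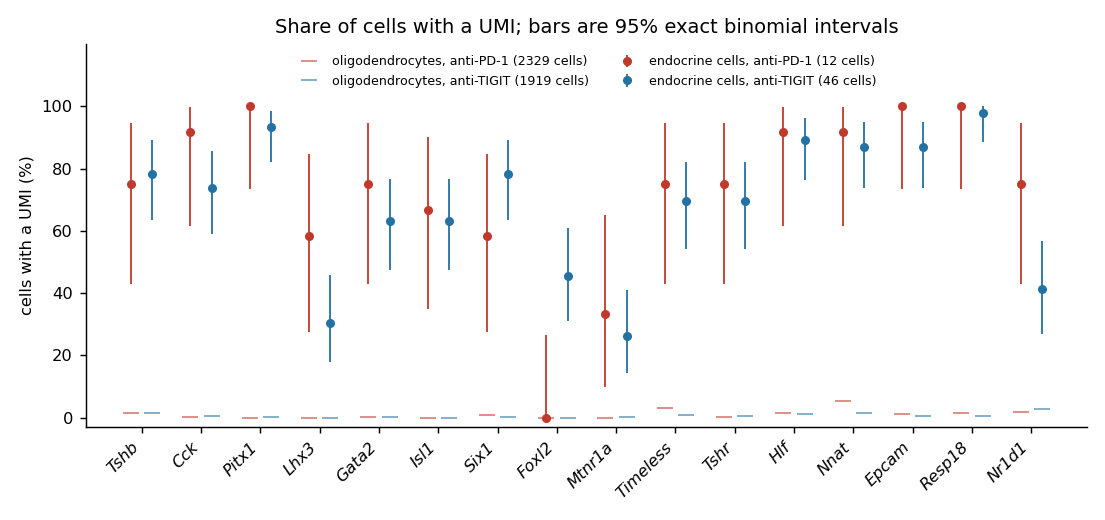
Share of cells with a UMI (y axis, percent) for 16 genes (x axis) in endocrine cells (points with 95% exact binomial intervals, 12 anti-PD-1 cells in red and 46 anti-TIGIT cells in blue) and in oligodendrocytes (short lines). Oligodendrocytes stay below 6% for all 16 genes, and the intervals of the 2 libraries overlap for each gene except Foxl2, which is at 0 in the anti-PD-1 cells and 45.7% in the anti-TIGIT cells before thinning.

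Receptors for the hypothalamic releasing hormones were largely at 0. Trhr, the thyrotropin-releasing hormone receptor, had no UMI, nor had Ghrhr, Crhr1, Avpr1b, Ghsr, the dopamine receptor Drd2 or the somatostatin receptors Sstr2, Sstr3 and Sstr5. In all, 9 of 15 listed receptor genes were at 0. The receptor for thyrotropin itself, Tshr, was present in 41 of 58 cells, 35 of them with Tshb, at 223 CPM (143 to 332) in the anti-PD-1 and 350 CPM (288 to 423) in the anti-TIGIT library. Its highest level in a reference class, both libraries pooled, was 0.817 CPM. Thyroid hormone receptor genes were low, with Thrb at 3 UMIs in 12 cells and 32 UMIs in 46 cells. The deiodinases Dio1, Dio2 and Dio3, which activate or inactivate thyroid hormone, were at 0.

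Of 11 listed genes of the pars tuberalis, 8 had a UMI, but only 3 were found in 50% or more of the cells. With 20 or more UMIs, 4 stood over 10-fold above the highest reference class. Tshb, a marker given with the label, counts among the 11, the 8, the 3 and the 4. Eya3 and Tef, with 39 UMIs each, stood at 3.19 and 2.22 times that class, and Nmu had 3 UMIs. Cck, the precursor of the peptide cholecystokinin, was found in 45 of 58 cells, with 0 to 337 UMIs (median 53) in the anti-PD-1 cells and 0 to 447 (median 14.5) in the anti-TIGIT cells. It was found in 11 of 12 and 34 of 46 cells, at 12469 and 5763 CPM. Cck and Tshb occurred together in 40 cells. Their counts per 10000 UMIs had a Spearman correlation of 0.62 over the 58 cells (0.82 and 0.62 within the libraries), as a description, since the cells of a library share its preparation and depth. Mtnr1a, the melatonin receptor, was found in 4 of 12 and 12 of 46 cells with at most 10 UMIs per cell, against 0 and 0.104% of oligodendrocytes. Timeless was present in 41 cells (344 and 324 CPM), in 37 of them with Tshb. Tac1 and the adenosine receptors Adora1 and Adora2b were at 0. The 15 UMIs of Cyp2f2 lay in 2 anti-TIGIT cells, 13 of them in 1 cell with oligodendrocyte transcripts.

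The 25 genes that stood highest above all 4 reference classes were taken among genes with at least 50 UMIs, detected in 25% or more of each library's endocrine cells. Of these, 12 were in the lists of hormones, pituitary factors, granins, exocytosis and thyroid genes and 13 were in none. The 12 include Cga and Chga, whose place follows from the rule that chose the cells. Among the latter, the apolipoprotein gene Apoc3 was found in 47 of 58 cells at 2044 CPM, against at most 2.02 CPM in a reference class. Ces1d, a carboxylesterase, was found in 49 cells, the nuclear receptor Rorb in 56 cells and the claudins Cldn7 and Cldn9 in 47 and 50 cells. Insm1, a factor of neuroendocrine differentiation, was found in 45 cells, and the calcium-binding protein Calb1 in 40. Epcam, an epithelial adhesion molecule, was present in 52 of 58 cells, 12 of 12 and 40 of 46.

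Granule genes were present throughout. All 15 listed granin and prohormone-processing genes had a UMI, and 11 were found in 50% or more of the cells. With 20 or more UMIs, 10 stood over 10-fold above the highest reference class. Chga, which the rule required, counts among the 15, the 11 and the 10. Chgb had 4 to 184 UMIs per cell (median 42.5) among anti-PD-1 cells and 1 to 357 (median 44) among anti-TIGIT cells. Scg2 had 2 to 97 (median 14.5) and 0 to 87 (median 17.5). Resp18, a granule protein of endocrine cells, had 26 to 208 (median 62) and 0 to 129 (median 50). The convertase Pcsk1, which cuts prohormones, was found in 7 of 12 and 18 of 46 cells, while Pcsk2 had 4 UMIs in the anti-PD-1 and 1 in the anti-TIGIT cells. Of the exocytosis list, 14 of 15 genes had a UMI and 6 were found in 50% or more of the cells. The list was led by the granule GTPase Rab3b (53 of 58 cells) and the calcium sensor Syt4 (47 cells). Of 14 folding and glycosylation genes, 10 were found in 50% or more of the cells and none with 20 or more UMIs stood over 10-fold above the reference classes. Chst8, a sulfotransferase of the pituitary glycoprotein hormones, was at 0.

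Markers of other cells of the nerve were largely missing. Astrocyte markers (5 of 5) and fibroblast markers (6 of 6) were at 0 in both libraries, and 7 of 8 T cell markers were at 0. Microglia and macrophage markers summed to 18.6 and 45.4 CPM, with Csf1r, Aif1, Trem2 and C1qc at 0. The rule itself capped the Cd3 and C1q genes. The oligodendrocyte list summed to 1570 CPM in the anti-PD-1 and 3638 CPM in the anti-TIGIT library. In the latter, 2 cells held 5 or more UMIs of Mog, Mag and Cldn11 together, with 64 and 37 UMIs of these 3 genes. Without them Mog stood at 0 and Mag at 7.02 CPM in the anti-TIGIT cells. A doublet caller (Scrublet) marked 3.55% and 1.68% of the barcodes and none of the 58 cells. The rates expected from the barcode numbers were 11.2% and 6.33%, so an unmarked cell may still be a doublet. The 2 cells with oligodendrocyte transcripts were among the unmarked ones. Of 126 kept barcodes that occurred in both libraries, none was an endocrine cell. Mki67, Cdk1, Ccnb1 and Ccnb2, genes of dividing cells, were at 0. The endocrine cells had 2054 to 14172 UMIs each, and all kept cells a median of 5120 and 4453.

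The 58 cells were not uniform, and Chga split them. All 12 anti-PD-1 cells and 35 anti-TIGIT cells held at least 149 Chga UMIs, and the other 11 anti-TIGIT cells held 3 to 34. This split was seen in the data and uses a gene of the rule, so it is a description. In the 11 cells Cck had 4 UMIs in all, or 67.0 CPM, against 7131 CPM in the 35 cells. Tshb stood at 151 against 4724 CPM, Apoc3 at 50.3 against 2338 CPM, Resp18 at 788 against 9694 CPM and Chgb at 1156 against 11082 CPM. Gata2 had 0 UMIs against 114. Hlf, a circadian output factor, had close summed levels of 1056 and 1147 CPM, but 29 of its 63 UMIs in the 11 cells lay in 1 cell. Its median was 1 against 6 UMIs per cell, and it was found in 7 of 11 against 34 of 35 cells. Pitx1 had 419 and 905 CPM, found in 9 of 11 cells.

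The 11 cells were of several kinds. Of these, 2 were the Lhb and Fshb cells, of which 1 also held 94 UMIs of Penk, the proenkephalin precursor, and the other none. Another was 1 of the 2 cells with oligodendrocyte transcripts, with 64 UMIs of Mog, Mag and Cldn11, 6 Cga and 19 Chga UMIs. A further 2 held 307 and 410 UMIs of Nnat, an imprinted gene of neuroendocrine tissue, beside 17 and 127 Cga UMIs and no Tshb. The remaining 6 had 3 to 36 Cga and 13 to 34 Chga UMIs, 2099 to 5167 UMIs in all, and 2.50% to 9.05% mitochondrial UMIs (median 7.19%, against 3.81% in the 35 cells). Of these 6 cells, 4 had Pitx1, 5 Hlf, 5 Tshr and 2 Tshb. The part of depth and RNA quality in their low granin levels was not tested.

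Clustering of the 58 cells gave 3 groups at the chosen resolution, which stay unnamed. The first held 27 cells (4 and 23), led by Homer1, Arih1, Frmpd4 and Dpp10. The second held 25 cells (8 and 17), led by Nnat, Gadd45g, Ly6h and Gnas, with 9080 CPM of Nnat against 1286 in the first. The third held 6 anti-TIGIT cells, led by Ddit4l, Wfdc2 and Dbp. Tshb was found in 22 of 27, 17 of 25 and 6 of 6 cells. The second held 66.7% (34.9% to 90.1%) of the anti-PD-1 cells and 37.0% (23.2% to 52.5%) of the anti-TIGIT cells, and these intervals overlapped. With another resolution the cells made 1 or 5 groups.

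The share of these cells differed between the libraries. They were 0.0952% (0.0492% to 0.166%) of kept anti-PD-1 cells and 0.641% (0.469% to 0.854%) of kept anti-TIGIT cells, 6.73-fold more (3.51 to 13.96). With the 35 and 12 cells of high Chga alone, the shares were 0.488% and 0.0952%, 5.12-fold apart (2.60 to 10.8). How far back the nerves were cut is not given in the sources used here, and treatment and preparation cannot be told apart. Sex-linked transcripts of both kinds were present in each library. Xist without Y-linked UMIs was found in 5 and 16 cells, Y-linked UMIs without Xist in 2 and 19, and both in 0 and 2. Taken at face value, at least 2 mice gave endocrine cells to each library. Whether free RNA supplied some of these UMIs was not tested.

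Levels within the cells were then compared between the libraries by the log2 ratio of (CPM + 5), anti-PD-1 over anti-TIGIT. Of 3846 genes with at least 20 UMIs over the 58 cells, 149 (3.87%) had a level 2-fold or more higher in anti-PD-1 cells. A level 2-fold or more lower was seen for 625 (16.3%). Counting error alone also moves genes past this limit, and more of them to the lower side. In simulated counts 287 of 3684 unchanged genes passed it, 79 higher and 208 lower. The counting interval lay above 0 for 265 genes (6.89%) and below 0 for 409 (10.6%), and the median log2 ratio was -0.13. The anti-PD-1 sum rests on 107628 UMIs of 12 cells and the anti-TIGIT sum on 308173 UMIs of 46 cells, so a single cell weighs more in the first.

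Immediate early genes, transcripts that stimulation or tissue dissociation is known to induce quickly, leaned most to the anti-PD-1 side among the lists with 8 or more counted genes. Of 13 counted genes 12 were higher in the anti-PD-1 cells, against 1645 of all 3846 genes. At least 2-fold higher were 7, against 3.87% of all genes, and the list's median log2 ratio was 1.20. The interval lay above 0 for 10 and below 0 for none, against 6.89% and 10.6% of all genes. Per cell, the 15 genes of the list together made 134 to 490 UMIs per 10000 (median 324) in anti-PD-1 cells and 6.20 to 472 (median 130) in anti-TIGIT cells. The ranges overlapped, but all 12 anti-PD-1 cells lay above the anti-TIGIT median and 23 of 46 anti-TIGIT cells lay below the lowest anti-PD-1 cell. With the 12 and 35 cells of high Chga alone, the list median was 1.18. In cells with Xist and no Y-linked UMI it was 0.66, and in cells with a Y-linked UMI and no Xist 1.35.

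Single genes of the list showed the same overlap. Junb, a component of the AP-1 factor, had 7 to 117 UMIs per cell (median 65) in the anti-PD-1 cells and 0 to 81 (median 12) in the anti-TIGIT cells, a log2 ratio of 1.20 (1.05 to 1.34). Atf3, a stress-induced repressor, was found in 10 of 12 and 20 of 46 cells, at 2434 and 558 CPM. Nr4a1, an orphan nuclear receptor, stood at 2137 and 707 CPM, and Zfp36, which destabilises inflammatory mRNAs, at 3484 and 1386 CPM. Fos differed less, at 5240 and 4072 CPM, and Fosb had a log2 ratio of 0.08 with an interval that held 0. Among genes outside the list, Egr4 stood at 2128 and 477 CPM and Fosl1 at 186 and 38.9 CPM. The heat shock genes Hspa1a and Hspa1b had at most 1 UMI per library.

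The same list was read in the other cells of these libraries to show whether the difference was shared. In C1q myeloid cells 0 of 15 genes had a higher anti-PD-1 level, against 6604 of all 14353 counted genes. The median log2 ratio of the list was -0.49 there. It was -0.51 in fibroblasts, 0.07 in T cells and 0.98 in oligodendrocytes. In these 3 classes 5, 9 and 12 of 15 genes were higher, against 3637 of 7729, 8185 of 14598 and 7555 of 14564 counted genes. Handling and treatment cannot be told apart with 1 library each.

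**Figure D4:**
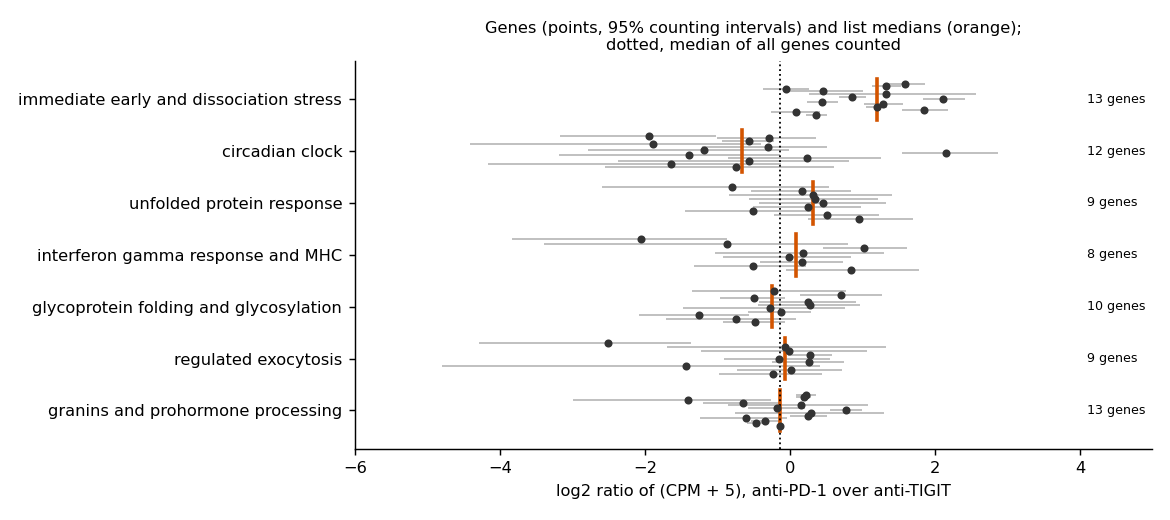
Log2 ratio of (CPM + 5), anti-PD-1 over anti-TIGIT (x axis), of the counted genes of 7 lists (rows) in endocrine cells, with 95% counting intervals in grey, the list median in orange and the median of all counted genes (-0.13) as a dotted line. The immediate early list sits to the right with a median of 1.20, the clock list to the left with a median of -0.66 and Nr1d1 apart at 2.15.

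Clock genes leaned the other way. Of 12 counted genes 10 were lower in the anti-PD-1 cells, against 2201 of all 3846 genes. At least 2-fold lower were 5, against 16.3% of all genes, and the list's median log2 ratio was -0.66. The interval lay below 0 for 6 and above 0 for 1, against 10.6% and 6.89% of all genes. Rora, an activator of clock transcription, stood at 83.6 CPM in the anti-PD-1 and 334 CPM in the anti-TIGIT cells, a log2 ratio of -1.94 (-3.17 to -1.02). Clock (46.5 and 130 CPM), Per3 (27.9 and 97.4 CPM) and Tef (27.9 and 117 CPM) were also lower. Hlf, found in 11 of 12 and 41 of 46 cells, differed less, at 762 and 1129 CPM. Of the 2 genes that were higher, Cry2 had a log2 ratio of 0.23 with an interval that held 0. The other was Nr1d1, a repressor in the clock, with 0 to 18 UMIs per cell (median 2.5) against 0 to 4 (median 0) and a log2 ratio of 2.15 (1.55 to 2.87). Among cells of the Nnat-led cluster alone the list median was 0.24, so the lean was not seen there. The labels give no time of day at collection.

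Interferon and antigen-presentation genes were, in sum, lower in the endocrine cells than in immune cells of both libraries. The 21 genes of the list summed to 1672 and 1564 CPM, or 180 and 482 UMIs. T cells had 9.32 and 9.53 times these levels and C1q myeloid cells 38.8 and 33.6 times. B2m, the light chain of MHC class I, stood at 167 CPM (99.1 to 264) in the anti-PD-1 cells and 90.9 CPM (60.4 to 131) in the anti-TIGIT cells, with 15 of the 18 anti-PD-1 UMIs in 1 cell. It reached 2360 and 2721 CPM in T cells. Cd74, the class II invariant chain, stood at 55.7 and 26.0 CPM against 34815 and 26040 CPM in C1q myeloid cells. H2-K1, a class I heavy chain, stood at 177 and 253 CPM. Some members stood nearer to T cells or above them: Irf1, a transcription factor of the response, stood at 427 and 208 CPM against 251 and 217 CPM in T cells, and Tapbp, a peptide-loading factor, at 149 and 149 CPM against 160 and 164 CPM. Anti-TIGIT oligodendrocytes had 0.964 times the summed level of the endocrine cells.

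Between the libraries this list did not lean to 1 side over all endocrine cells. Of 8 counted genes 4 were higher and 4 lower in the anti-PD-1 cells, with a median log2 ratio of 0.08. The interval lay above 0 for Irf1 and below 0 for Irgm1, against 6.89% and 10.6% of all genes. The sum differed by a log2 ratio of 0.10 (-0.16 to 0.35). The list median rests on few UMIs: it was 1.03 in cells with Xist and no Y-linked UMI, -1.37 in cells with a Y-linked UMI and no Xist, and 0.83 after thinning. In oligodendrocytes of the same libraries all 21 genes had a higher anti-PD-1 level, against 7555 of all 14564 counted genes. The list had a median of 2.86 there, with summed levels of 8409 and 1508 CPM. C1q myeloid cells had a median of 0.62, fibroblasts 0.27 and T cells 0.16. A test of the difference between cell classes is not possible with 1 library each.

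A single anti-TIGIT cell carried much of the endocrine interferon signal. With 8758 UMIs, 128 Cga, 672 Chga and 2 Tshb, it held 116 UMIs of the list, 132 per 10000, where the next highest anti-TIGIT cell had 66.0 per 10000. It held 38 of 64 Irgm1 UMIs, all 17 Igtp UMIs and all 4 Gbp2 UMIs of the anti-TIGIT endocrine cells, and 3 of Cd274, which encodes the PD-1 ligand PD-L1. These Irgm1, Igtp and Gbp2 products belong to interferon-induced GTPases. Without this cell the log2 ratio of Irgm1 moved from -2.05 to -0.84, and that of the summed list became 0.45 (0.19 to 0.71). No anti-PD-1 cell was left out in turn, and 1 such cell held 83.3% of that library's B2m UMIs. Irf1 alone made 46 of the 180 anti-PD-1 UMIs of the list, and 64 of the 482 anti-TIGIT UMIs with all cells kept. The value of 0.45 is thus no measure of a lean across the list.

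**Figure D5:**
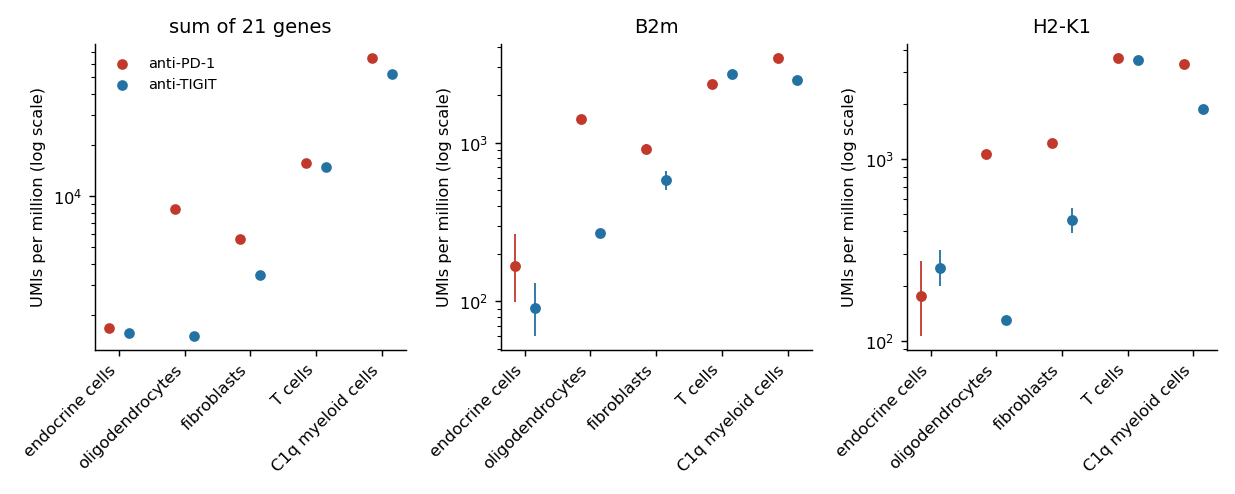
Levels in CPM (y axes, log scale) of the 21 summed interferon and antigen-presentation genes, of B2m and of H2-K1 in 5 cell classes (x axes), anti-PD-1 in red and anti-TIGIT in blue, with 95% Poisson intervals for the single genes. Endocrine cells lie at 1672 and 1564 for the sum, below T cells and C1q myeloid cells, and oligodendrocytes separate by library at 8409 and 1508.

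Granule genes differed in both directions. The granin and processing list had a median log2 ratio of -0.14, close to that of all genes, with 6 genes higher and 7 lower, the interval above 0 for 3 and below 0 for 6, against 6.89% and 10.6% of all genes. Chga had -0.14 (-0.18 to -0.09) and Resp18 0.19 (0.08 to 0.30). The list median is the value of Chga itself, which is counted among the 6 and was used by the rule. This value and that of Cga below therefore describe the choice of cells. Among hormone genes, Cga had 1.40 (1.34 to 1.46), and 0.53 (0.45 to 0.62) without the anti-PD-1 cell of most Cga and the 2 Lhb cells. Cck had 1.11 (1.01 to 1.22), and 1.28 (1.18 to 1.38) without the same cells. Its ranges over cells overlapped. Tshb had 0.33 (0.18 to 0.48). The exocytosis list had a median of -0.06, the folding and glycosylation list -0.25, the unfolded protein response list 0.32 and the pituitary factor list -0.14.

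Genes named here were detected in 10% or more of either library's endocrine cells and had at least 25% of the highest reference level. Under these limits the 10 genes with the largest ratios were Eno3, Gadd45b, Nr1d1, Egr4, Fosl1, Atf3, Gadd45g, Gcc1, Apoa1 and Ntrk2, from 3.60 to 1.98. For Eno3 and Gadd45b 91.3% and 83.8% of the anti-PD-1 UMIs lay in 1 cell, so each of these values is mainly that of a single cell. Apoa1, the apolipoprotein of high-density lipoprotein, was found in 7 of 12 and 13 of 46 cells at 353 and 84.4 CPM. The lowest ratio was that of Lhb, set by the 2 Lhb cells. The limits left out genes with ratios between that of Lhb and the next named gene, such as Fshb (-5.88), Mal (-5.58) and Cldn11 (-5.09), found in 2, 2 and 5 anti-TIGIT cells. The 9 other named genes, Lrmda, Foxl2, Stxbp4, Polr2a, Foxo3, Pde7a, Ctdspl, Smc3 and Tmod3, had no UMI in 12 anti-PD-1 cells and 26 to 34 in the anti-TIGIT cells. Against a floor of 3 UMIs in the anti-PD-1 sum (27.9 CPM), their anti-TIGIT levels stood 3.03-fold to 3.96-fold higher, and Foxl2 3.73-fold. This takes no account of counting error in the anti-TIGIT sums. The upper limits of their log2 ratio intervals ran from -1.61 (Lrmda) to -1.20 (Pde7a, Ctdspl, Smc3 and Tmod3), with -1.52 for Foxl2. With the Cd3 and C1q limits dropped, which adds 2 anti-PD-1 cells and 1 anti-TIGIT cell, the log2 ratios of Lrmda, Foxo3 and Tmod3 were -1.44, -0.99 and -1.07.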

How the data were processed

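The authors deposited UMI count matrices of 2 droplet libraries, made with Cell Ranger 8.0.0 (anti-PD-1) and 8.0.1 (anti-TIGIT) per the file headers. The build mm10, Seurat 5.0.3 and R 4.1.1 come from the submitters' processing notes. The unnormalized deposited counts were used, with 13997 and 7915 barcodes and 85031565 and 40733655 UMIs. Cells with under 500 genes or over 10% mitochondrial UMIs were left out. Counts of the chosen cells were summed per library and scaled to CPM. Genes with at least 20 UMIs were compared as the log2 ratio of (CPM + 5), with exact binomial intervals. With 1 library per group there is no test. Scripts were tested on simulated counts. Scrublet calls of doublets were counted and no cell was removed by them. The members and lists were chosen with earlier results of these data known. Genes named between libraries were the 10 with the largest ratios in each direction among those detected in 10% or more of either library's endocrine cells and with at least 25% of the highest reference level. Identity genes were the 25 highest above the reference classes with at least 50 UMIs and detection in 25% or more of the cells of both libraries. Mitochondrial, ribosomal, haemoglobin, receptor segment, sex-linked and unnamed genes were left out of both. The Chga split was chosen after seeing the data. Alternatives changed the rule, filters, pseudocount, scaling and single cells. Python 3.11.15, scanpy 1.11.5, numpy 2.4.6 and scipy 1.17.1 were used. Promoters are RefSeq's.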

Additional observations from a re-analysis of the deposited data

How the results depend on the processing

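The share kept its direction under every alternative run: the fold ran from 4.80 to 13.5 and the anti-PD-1 share from 0.0561% to 0.156%. Of 36 alternative values 34 stayed within the interval of the reported value, and the anti-TIGIT share was 0.467% at no more than 5% mitochondrial UMIs and 1.05% among cells with Xist and no Y-linked UMI. Counts of genes depended most on the filter. Genes at least 2-fold higher numbered 76 after thinning to 2000 UMIs, 91 with a pseudocount of 20, 1375 at a minimum of 1 UMI, 29 at 100 UMIs and 71 in the second cluster alone, against 149. Genes at least 2-fold lower numbered 410 without the Cd3 and C1q limits, 348 at 5% mitochondrial UMIs, 232 in Xist cells, 262 in Y-linked cells, 151 thinned, 3415 and 44 at minimums of 1 and 100 UMIs, and 143 in the second cluster, against 625. Of 263 list medians 255 stayed within the members' median interval limits, which are wide: unfolded protein response genes ran from -0.23 to 0.98 and cAMP genes from -0.81 to 0.48. The others were 0.72 for pars tuberalis genes thinned, 0.24 for the clock in the second cluster, and 1.03, -1.37 and 0.83 for interferon genes in Xist cells, in Y-linked cells and thinned. Immediate early genes had 0.66 and 1.35 in Xist and Y-linked cells. Oligodendrocyte markers had -0.17 without the 2 cells that carry them, against -3.20. Signs turned for Eno3 (-2.98, Xist cells), Gadd45b (-0.37 with Tshb required, -3.86 in Y-linked cells), and, in Y-linked cells, Gcc1 (-3.09), Apoa1 (-0.033) and Ntrk2 (-3.32). The anti-TIGIT share with Foxl2 was 4.35% at 1000 UMIs and 45.7% unthinned. Clustering gave 1 and 5 groups at resolutions 0.2 and 1.0. The cause was not tested for these changes. No paired analysis was possible because the labels carry no replicate numbers. Settings on single cells, on the second cluster and on high Chga were chosen after seeing the data. Only 2 anti-PD-1 cells are Y-linked, so values there rest on very few UMIs.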
